A study of Homo sapiens with 9 samples.

Results

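The oligoadenylate synthetase (OAS) family comprises OAS1, OAS2, OAS3 and OASL, and its members were taken as every transcript listed under 1 of these 4 gene names. There were 18 such transcripts under 4 gene identifiers, of 90652 transcripts and 28717 gene identifiers in the table. The family was selected on the FPKM of the H2O2 and control libraries, because 1 OAS2 transcript was far lower in H2O2. Every value that compares H2O2 libraries with others is therefore a description here, given without a p. The cells were SNU16, an established human gastric carcinoma line labelled wild type, grown in medium with fetal bovine serum. In 3 groups of 3 libraries they were left untreated (control), exposed to 7.69 µM 5-fluorouracil (5-FU), a pyrimidine analogue that inhibits thymidylate synthase and is built into nucleic acids, or given 80 µM hydrogen peroxide (H2O2), an oxidant. All groups had the same 24 h label. RNA was sequenced, and levels are FPKM, fragments scaled by transcript length and library size so that transcripts can be set side by side. For transcripts that overlap, the levels also depend on how reads were divided between them, which is not known.

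OAS enzymes are interferon-induced sensors of double-stranded RNA. On binding it, OAS1, OAS2 and OAS3 join ATP into short 2-5A oligoadenylates, which activate a ribonuclease that cuts viral and cellular RNA. OASL, the like protein, does not make them and carries a ubiquitin-like part through which it acts with the RNA sensor RIG-I. Interferons reach these genes through transcription factors that bind the interferon-stimulated response element (ISRE) in promoters, a site related to those of the interferon regulatory factors (IRF).

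OAS1, OAS3 and OAS2 lie next to each other on the plus strand of chromosome 12 (GRCh38). Their listed transcripts span 104759 bases from the start of OAS1 to the end of OAS2. OAS1 (ENSG00000089127) spans 112906962 to 112919909, OAS3 (ENSG00000111331) spans 112938454 to 112973250, and OAS2 (ENSG00000111335) spans 112978519 to 113011720. OASL (ENSG00000135114) lies apart on the minus strand, at 121020298 to 121032642. The table listed 5 OAS1, 7 OAS3, 4 OAS2 and 2 OASL transcripts. The GENCODE V29 annotation, also on GRCh38, holds 4 of the 18 and classes 3 of those as retained-intron transcripts and 1 as a processed transcript without a coding frame. All 4 are listed with other ends than in V29. OAS3-205, for example, is listed at 112968244 to 112973250 and lies at 112969332 to 112970705 in V29. Their V29 classes may thus not hold for the listed forms. The mRNAs of the 4 genes were not analysed here, so a level given for a gene is the sum of these listed transcripts. Levels of all other genes, also those of the background, are likewise sums of listed transcripts. The deposited values are named as those of lnc transcripts, read here as long non-coding ones. Whether the listed transcripts include any mRNAs was not checked.

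The promoters are shown because interferon acts on the family there. RefSeq promoter windows (GRCh38.p14) were held for 2 of the 4 genes, OAS1 and OAS3. Each line gives the 150 bases before the RefSeq gene start on the plus strand, at chr12:112906812-112906961 for OAS1 and chr12:112938324-112938473 for OAS3. Other models start elsewhere: exon 1 of the GENCODE V29 mRNA starts at 112906777 for OAS1 and 112938352 for OAS3, so the whole OAS1 line and most of the OAS3 line lie within it, and the last bases of the OAS3 line lie inside the span of its listed transcripts. Capitals mark matches to the ISRE core (GAAA, any 2 bases, GAAA) or the shorter IRF core AANNGAAA.
OAS1 promoter: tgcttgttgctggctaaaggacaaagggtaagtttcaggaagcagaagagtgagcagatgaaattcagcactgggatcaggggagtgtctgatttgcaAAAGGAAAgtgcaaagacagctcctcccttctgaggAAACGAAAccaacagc
OAS3 promoter: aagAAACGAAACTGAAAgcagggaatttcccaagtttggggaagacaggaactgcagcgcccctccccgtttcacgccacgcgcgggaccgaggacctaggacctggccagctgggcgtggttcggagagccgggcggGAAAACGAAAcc
The OAS3 window held 2 ISRE core matches, GAAACTGAAA at 143 to 134 bases and GAAAACGAAA at 12 to 3 bases before the RefSeq start. The OAS1 window held no ISRE core match and 2 IRF core matches, AAAGGAAA at 52 to 45 bases and AAACGAAA at 16 to 9 bases before the RefSeq start. Only a spacing of 2 bases between the GAAA repeats was searched, so the missing match does not show that OAS1 lacks an ISRE. OAS3 held 3 IRF core matches, of which 2 lie inside its ISRE core matches and the other overlaps the first of them, since the longer motif contains the shorter. Over all 35116 promoter windows of 300 bases, searched on both strands, 3.57% held the ISRE core and 22.8% the IRF core.

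The transcript whose H2O2 values lay farthest below control, OAS2-214 (ENST00000681023), spans chromosome 12 from 113003305 to 113011138, which is 7834 bases. Set against the 11-exon OAS2 mRNA of GENCODE V29, it starts 203 bases past the end of exon 6, inside the 1831 bases of intron 6 and 1629 bases before exon 7, and it ends in exon 11. The mRNA joins exon 6 directly to exon 7 there. The junction is given with the last 40 bases of exon 6 in lower case (113003063 to 113003102) and the first 60 bases of exon 7 in capitals (113004934 to 113004993), plus strand, so that the place of the transcript's start can be seen.
OAS2 mRNA, exon 6 to exon 7: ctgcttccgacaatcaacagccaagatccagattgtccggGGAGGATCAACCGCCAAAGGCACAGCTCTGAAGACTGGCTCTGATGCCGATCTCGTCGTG
OAS2-214 thus begins in sequence that the mRNA leaves out, and 5 of the 11 mRNA exons lie after its start.

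Some facts of the libraries touch all values. Depth is unknown, and the FPKM listed summed to between 56096.4 and 60642.1 per library. Replicate 3 of H2O2 stood apart on the second principal component of all tested genes (-41.86, against -3.4 and -2.39 for the other H2O2 libraries), and replicate 3 of 5-FU on the first (33.28, against 12.51 and 15.78). Nothing in the labels says that replicates were separate cultures. The p-values thus set group differences against the scatter of these libraries, which may be technical only. Markers of the labelled cell type were present in part: of 15 epithelial markers, 10 were in the table and 9 were tested. Those in the table summed to between 315.0 and 400.5 FPKM (control), 203.2 and 260.7 (5-FU) or 289.7 and 432.9 (H2O2). KRT8 was the largest part of this sum. Its mean was 227.5 FPKM over the control libraries, against 103.3 with 5-FU and 191.6 after H2O2. KRT20 was at 0 in every library. Of 9 leukocyte markers 4 were in the table and summed to at most 0.026 FPKM in any library, with PTPRC at 0. The fibroblast markers in the table (5 of 7) summed to 0.214 to 0.724 FPKM, and the endothelial markers VWF and KDR were at 0. Low sums of listed transcripts do not show that the mRNAs of these markers were absent.

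Summed over listed transcripts, OAS2 had the highest mean over the 9 libraries (20.2 FPKM), followed by OAS3 (15.7), OASL (11.9) and OAS1 (5.25). In control libraries OAS2 lay above the other 3 genes without overlap. OAS3 and OASL, the next in the order, overlapped in control and did not differ beyond their spread there. In H2O2 the order was another one, with OAS3 at a mean of 13.9 FPKM above OAS2 at 10.5, and overlapping libraries. OAS1 was below all others in all 9 libraries.

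**Figure D1:**
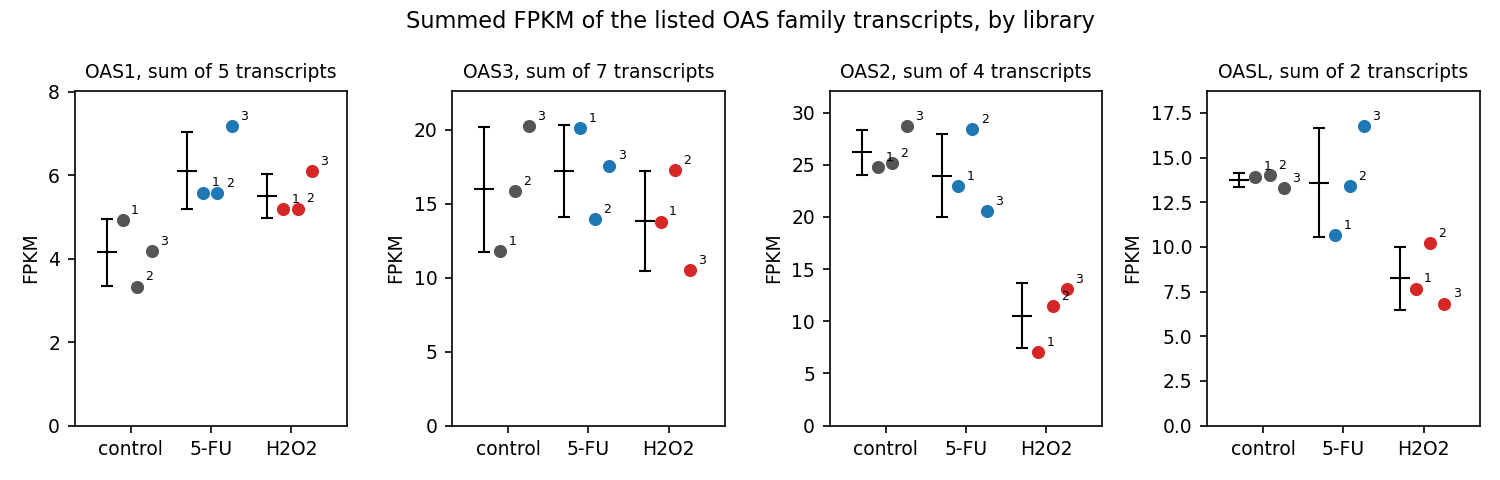
Summed FPKM of the listed transcripts of each OAS gene (vertical axis, linear, from 0) in the control, 5-FU and H2O2 groups. Points are libraries with their replicate number, and the bars beside them are the mean ± SD of 3 libraries. OAS2 in the H2O2 libraries lay between 7.04 and 13.1 FPKM, below all control libraries, and OAS1 was higher in every treated library than in every control library.

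OAS2, whose protein carries repeats of the OAS unit, was listed at 24.8, 25.1 and 28.7 FPKM in control replicates 1 to 3, at 22.9, 28.4 and 20.6 in 5-FU and at 7.04, 11.4 and 13.1 in H2O2. Control and 5-FU libraries overlapped, and all 3 H2O2 libraries were below all 6 others. The means were 26.2 ± 2.16, 24.0 ± 4.01 and 10.5 ± 3.13 FPKM (SD, n = 3). The H2O2 mean was 40.2% of the control mean, and the fitted difference was -1.32 (SE 0.22) on the log2(FPKM + 0.5) scale, or -1.49 without replicate 3 of H2O2. For 5-FU against control the difference was -0.13 (SE 0.22, limma adjusted p = 0.820), which did not pass the test. Both comparisons use the same 3 control libraries. In bulk RNA, less of a transcript per cell and fewer cells that hold it cannot be told apart.

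OAS2-214 made up most of this gene sum in control. Its FPKM was 22.2, 19.7 and 21.8 in control, 19.8, 24.8 and 17.0 in 5-FU and 2.55, 4.40 and 2.21 in H2O2, for replicates 1 to 3. The highest H2O2 library, at 4.40, was far below the lowest of the other 6, at 17.0. The means were 21.3 ± 1.39, 20.5 ± 3.99 and 3.05 ± 1.18 FPKM (SD, n = 3), so the H2O2 mean was 6.96-fold below that of control. The fitted log2 difference for H2O2 was -2.66 (SE 0.25), and -2.49 without replicate 3 of H2O2. For 5-FU it was -0.06 (SE 0.25, limma adjusted p = 0.950), and it was 0.06 without replicate 3 of 5-FU.

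OAS2-213 (ENST00000680898) covers nearly the whole gene, from 112978586 in exon 1 to 113011720 in exon 11, and was not lower in H2O2. It was listed at 1.89, 3.50 and 4.11 FPKM in control, 2.16, 1.96 and 2.13 in 5-FU and 3.53, 5.73 and 7.44 in H2O2. The H2O2 libraries overlapped the control libraries and lay above all 3 5-FU libraries. The means were 3.17 ± 1.14, 2.09 ± 0.110 and 5.56 ± 1.96 FPKM (SD, n = 3). The fitted log2 difference was 0.72 (SE 0.30) for H2O2, or 0.50 without its replicate 3. For 5-FU it was -0.45 (SE 0.30, limma adjusted p = 0.637).

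The other 2 OAS2 transcripts start in exon 1 and end upstream of OAS2-214, so they do not overlap its span. OAS2-215 (ENST00000681673, 112978519 to 112996178, ending in intron 3) was at 0.787 ± 0.344 FPKM in control libraries, 1.11 ± 0.208 with 5-FU and 1.06 ± 0.818 in H2O2 (SD, n = 3), with overlapping groups. OAS2-211 (ENST00000680666, 112978594 to 112988800, ending in intron 2) ran from 0.0880 to 1.54 FPKM in control libraries, 0.0348 to 0.526 with 5-FU and 0.0737 to 1.5003 in H2O2. Replicate 1 was the lowest in each group for OAS2-211. With OAS2-214 left out, the OAS2 gene sum was 4.93 ± 2.20 FPKM in control libraries, 3.42 ± 0.258 with 5-FU and 7.47 ± 3.2203 in H2O2. The other 3 transcripts together were thus not lower in H2O2 than in control, and their libraries overlapped between these groups.

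**Figure D2:**
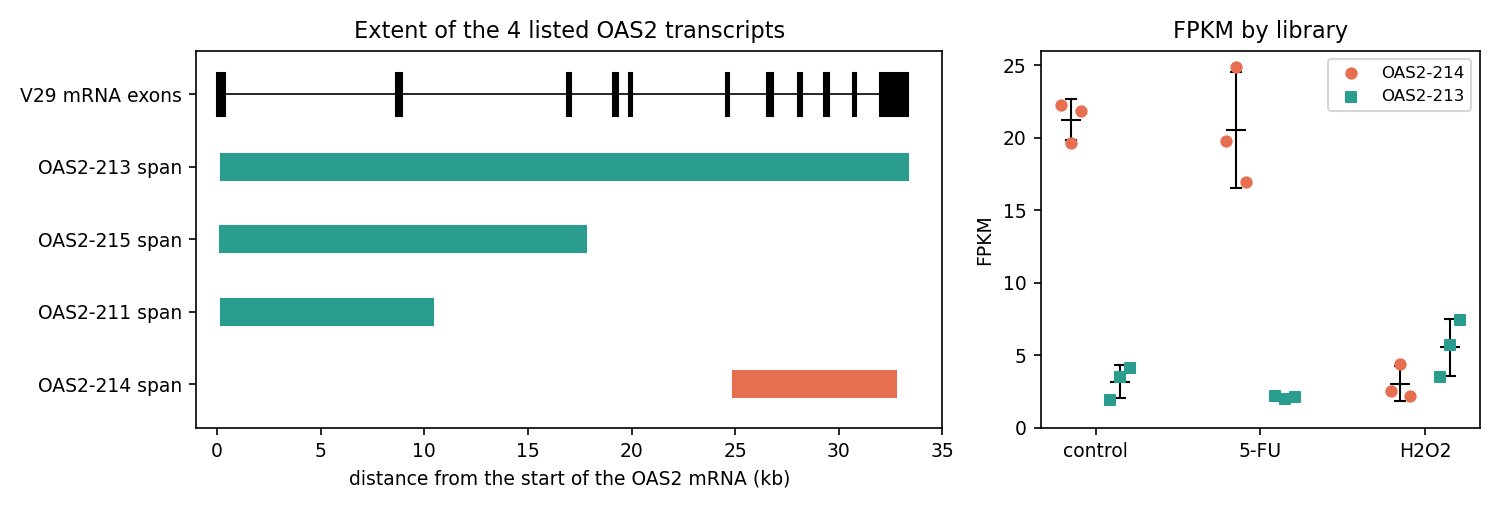
Left, the extent of the 4 listed OAS2 transcripts from start to end (bars; their exons are not drawn) under the exons of the GENCODE V29 mRNA, with distance from the mRNA start in kb. Right, FPKM of OAS2-214 (circles) and OAS2-213 (squares) in each library, with mean ± SD of 3 libraries. OAS2-214 lay above OAS2-213 in every control and 5-FU library and below it in every H2O2 library.

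The shares of the gene sum show the change of order within OAS2. OAS2-214 held 89.9%, 78.3% and 76.2% of the sum in control replicates 1 to 3, 86.4%, 87.5% and 82.5% in 5-FU and 36.2%, 38.5% and 16.9% in H2O2. OAS2-213 held 7.65%, 14.0% and 14.3% in control, 9.43%, 6.90% and 10.4% in 5-FU and 50.1%, 50.1% and 56.8% in H2O2. The H2O2 libraries did not overlap the other 6 for either transcript. The mean share of OAS2-214 was 81.4% ± 7.36 in control, 85.5% ± 2.64 in 5-FU and 30.5% ± 11.9 in H2O2 (SD, n = 3), and that of OAS2-213 was 11.98% ± 3.75, 8.91% ± 1.80 and 52.3% ± 3.85. OAS2-215 held 2.95% ± 1.03, 4.77% ± 1.52 and 10.2% ± 6.33, and OAS2-211 held 3.63% ± 2.84, 0.879% ± 0.876 and 6.95% ± 5.34. The ratio of OAS2-214 to OAS2-213 ranged from 5.32 to 11.7 in control libraries, from 7.95 to 12.7 with 5-FU and from 0.297 to 0.768 in H2O2.

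Between 5-FU and control the shares did not differ beyond their spread. The share of OAS2-214 was 4.01 percentage points higher in 5-FU (exact two-sided permutation p = 0.4, n = 3 per group) and that of OAS2-213 3.07 points lower (exact permutation p = 0.3). For OAS2-215 and OAS2-211 the exact permutation p was also 0.3. With 3 against 3 libraries the smallest p is 0.1, so no share could pass a threshold of 0.05. The spans of OAS2-213 and OAS2-214 both cover exons 7 to 11 of the mRNA, while their own exons are not known here. The OAS2 mRNA, which was not analysed here, holds the same exons 7 to 11. How reads were divided between overlapping models is stated nowhere in the labels or notes. Its part in these shares, in the level of OAS2-214 and in the OAS2 sum was therefore not tested.

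**Figure D3:**
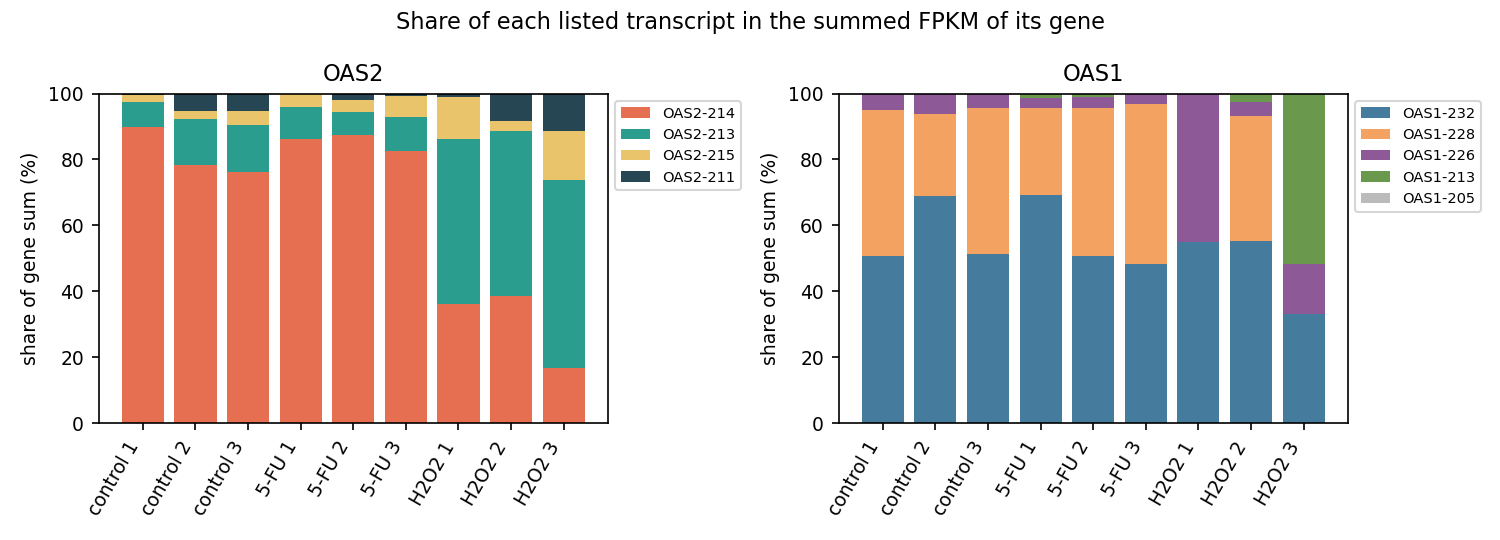
Share (percent, vertical axis) of each listed transcript in the summed FPKM of OAS2 (left) and OAS1 (right), 1 stacked bar per library. OAS2-214 is the largest part in the control and 5-FU libraries, at 76.2% or more, and OAS2-213 is the largest part in all 3 H2O2 libraries.

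OASL, the member that does not make oligoadenylates, was listed at 13.9, 14.0 and 13.3 FPKM in control, 10.6, 13.4 and 16.7 in 5-FU and 7.67, 10.2 and 6.83 in H2O2. The 5-FU libraries lay on both sides of control, and the H2O2 libraries were below all 6 others. The means were 13.7 ± 0.386, 13.6 ± 3.05 and 8.24 ± 1.76 FPKM (SD, n = 3), which puts H2O2 at 59.9% of control. The log2 difference was -0.72 (SE 0.20) for H2O2, or -0.61 without its replicate 3. For 5-FU it was -0.04 (SE 0.20, limma adjusted p = 0.953), and it changed sign to 0.12 without replicate 1 of 5-FU.

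In contrast to OAS2, OASL kept the order of its 2 transcripts in every library. OASL-209 (ENST00000680750, 121020357 to 121032642, from intron 2 to exon 6) held 85.1% to 96.6% of the sum. Its FPKM was 12.3 ± 0.864 in control, 12.8 ± 3.17 in 5-FU and 7.15 ± 1.47 in H2O2 (SD, n = 3), and its H2O2 libraries, at 6.91, 8.73 and 5.81, lay below the lowest of the others at 9.87. OASL-210 (ENST00000681005, 121020298 to 121024642, from intron 4 to exon 6) was at 1.78, 0.798 and 1.81 FPKM in control, 0.766, 0.954 and 0.565 in 5-FU and 0.751, 1.48 and 1.02 in H2O2. Its 5-FU difference of -0.60 (SE 0.28) did not pass the test (limma adjusted p = 0.495), and its groups overlapped.

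OAS1, the smallest enzyme of the family with a single OAS unit, was the only gene whose 5-FU libraries all lay above its control libraries. The sum was 4.94, 3.33 and 4.19 FPKM in control, 5.59, 5.57 and 7.17 in 5-FU and 5.19, 5.20 and 6.11 in H2O2. The lowest treated library, at 5.19, was above the highest control library. The means were 4.15 ± 0.802, 6.11 ± 0.921 and 5.50 ± 0.526 FPKM (SD, n = 3). The 5-FU difference of 0.51 on the log2 scale (SE 0.18) had an unadjusted limma p of 0.0179 and an adjusted p of 0.214, so it did not pass the test. For H2O2 the difference was 0.38 (SE 0.18), or 0.31 without its replicate 3.

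The transcripts behind the OAS1 sum differed between H2O2 libraries. OAS1-232 (ENST00000681831, 112906962 to 112917935, from exon 1 to intron 5) was steady at 2.51, 2.30 and 2.16 FPKM in control and 2.86, 2.88 and 2.03 in H2O2, and was at 3.88, 2.83 and 3.47 in 5-FU. Its 5-FU libraries were all above control (log2 difference 0.46, SE 0.19, limma adjusted p = 0.455). OAS1-228 (ENST00000681436, 112907134 to 112919909), which runs the length of the mRNA, was at 2.18, 0.825 and 1.85 FPKM in control and 1.47, 2.49 and 3.48 in 5-FU. In H2O2 it was at 0.000948, 1.97 and 0 FPKM, that is near or at 0 in replicates 1 and 3 and at a control level in replicate 2.

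In those same 2 H2O2 libraries other OAS1 transcripts were high. OAS1-226 (ENST00000681194, 112915551 to 112917946, inside introns 3 to 5) was at 2.33 FPKM in H2O2 replicate 1 and 0.917 in replicate 3, against 0.214 in replicate 2 and 0.170 to 0.244 in the 6 other libraries. OAS1-213 (ENST00000679413, 112913637 to 112919852, from intron 3 to exon 6) was at 3.16 FPKM in H2O2 replicate 3 and at 0 to 0.137 elsewhere. OAS1-228, OAS1-226 and OAS1-213 held 0.0183%, 44.9% and 0% of the OAS1 sum in H2O2 replicate 1, and 0%, 15.01% and 51.8% in replicate 3. The OAS1 sum in H2O2 was nevertheless close between replicates, at 5.19 to 6.11 FPKM. In replicates 1 and 3 this sum lay above control only with OAS1-226 and OAS1-213 included. OAS1-226 and OAS1-213 missed the minimum for the fit, which was at least 0.5 FPKM in 3 libraries. OAS1-205 (ENST00000549820, 112906973 to 112919845) was listed at 0 in all 9 libraries.

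OAS3, the largest member and the one with most repeats of the OAS unit, was the gene whose groups overlapped in every comparison. Its sum was 11.8, 15.9 and 20.2 FPKM in control, 20.1, 14.0 and 17.6 in 5-FU and 13.8, 17.3 and 10.5 in H2O2, with means of 15.97 ± 4.21, 17.2 ± 3.09 and 13.9 ± 3.37 (SD, n = 3). The 5-FU difference was 0.12 (SE 0.24, limma adjusted p = 0.855), and it was -0.07 without control replicate 1. For H2O2 the difference was -0.19 (SE 0.24), or -0.01 without its replicate 3.

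OAS3-205 (ENST00000549918, 112968244 to 112973250, from the start of intron 14 to the end of the gene) held 61.0% ± 4.69 of the OAS3 sum in control, 67.7% ± 5.18 in 5-FU and 67.2% ± 3.76 in H2O2 (SD, n = 3). Its FPKM was 9.83 ± 3.221, 11.6 ± 2.27 and 9.35 ± 2.597. As in OAS2, the most abundant listed OAS3 transcript lies at the downstream end of the gene, but its share in H2O2 was not below that in control, and the libraries overlapped. OAS3-233 (ENST00000681527, 112938505 to 112968949) ran from 0.848 to 3.90 FPKM and OAS3-228 (ENST00000681105, 112946530 to 112952233) from 0.645 to 1.46. OAS3-202 (ENST00000546638, 112938524 to 112949360) was at 1.09 ± 0.276 FPKM in control libraries, 0.661 ± 0.256 with 5-FU and 0.522 ± 0.465 in H2O2, and OAS3-218 (ENST00000680153, 112946645 to 112952510) at 0.573 ± 0.271, 0.860 ± 0.381 and 0.478 ± 0.172. OAS3-203 (ENST00000546800, 112950573 to 112962660), at 0.225 to 0.591 FPKM, and OAS3-236 (ENST00000681665, 112938454 to 112952366), at 0.0777 FPKM or less, missed the minimum for the fit.

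Over the family, 13 of the 18 transcripts and all 4 gene sums entered the fit. For 5-FU against control, 0 of 4 gene sums and 0 of 13 transcripts passed a limma adjusted p of 0.05. Of all 9947 genes tested 0.774% passed, and of all 22618 transcripts 0.00442%, so 0 members called is near the background. At an unadjusted p under 0.05 there was 1 gene sum (OAS1) and 1 transcript (OAS1-232), against 15.5% of all genes and 10.4% of all transcripts. The transcript differences ran from -0.88 for OAS2-211 (SE 0.57) to 0.50 for OAS1-228 (SE 0.59), with adjusted p between 0.455 and 0.970. Of the 13 transcripts, 6 were above 0 and 7 below (45.0% of all transcripts were below), with a median of -0.06 against 0.05 over all tested transcripts. The 5-FU libraries lay above control without overlap for 1 of 4 gene sums and 1 of 13 transcripts, where the background was 12.8% of genes and 10.7% of transcripts.

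For H2O2 against control the counts are given as a description only. The groups did not overlap for 3 of 4 gene sums (OAS2 and OASL lower, OAS1 higher) and 2 of 13 transcripts (OAS2-214 and OASL-209, both lower), beside 6.51% of all genes lower and 8.86% higher and 5.72% of all transcripts lower. The fitted difference was below 0 in 10 of 13 transcripts, beside 45.6% of all transcripts, and the median was -0.28 against 0.04. Without control replicate 3 it was below 0 in 7 of 13 with a median of -0.11, with OAS3-218, OAS3-205 and OAS2-211 turning above 0. By limma's adjusted p, 0.0133% of all transcripts and 0.0% of all genes were called, and 9.07% of genes and 7.6% of transcripts were under an unadjusted p of 0.05. Set directly against H2O2, the 5-FU libraries were above it without overlap for OAS2 (log2 difference 1.18, SE 0.22) and OASL (0.69, SE 0.20), beside 9.42% of all genes. Among transcripts, OAS2-214 (2.60, SE 0.25) and OASL-209 (0.79, SE 0.22) were higher and OAS2-213 (-1.18, SE 0.30) lower, beside 7.48% and 6.84% of all transcripts.

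**Figure D4:**
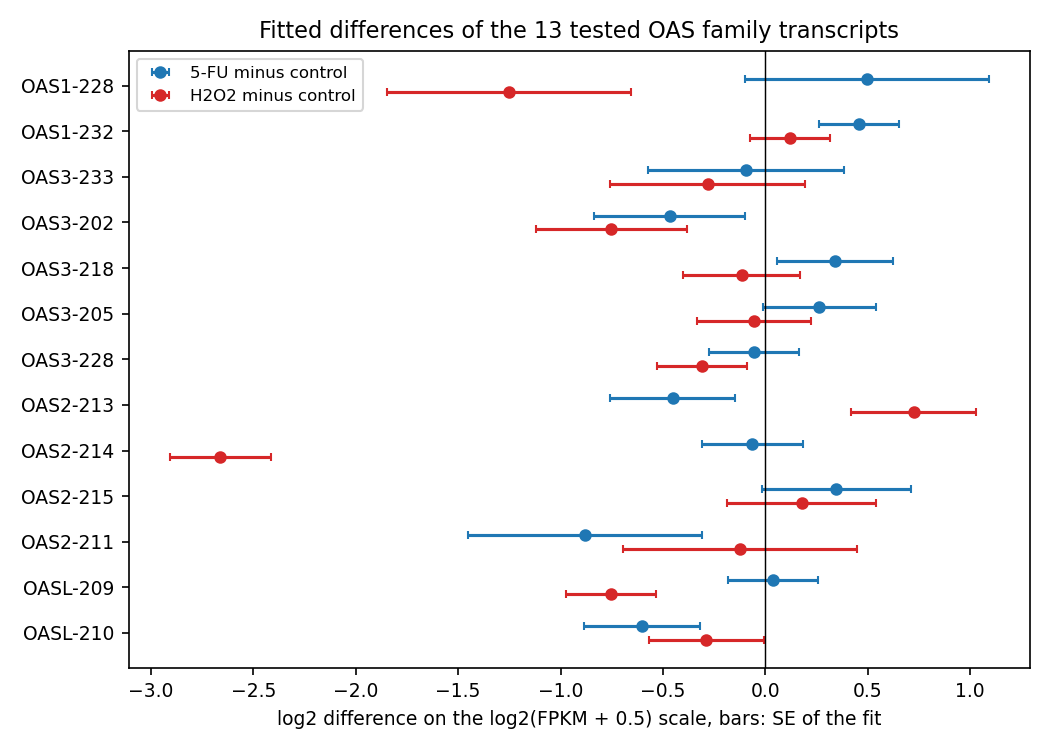
Fitted differences from control (horizontal axis, log2(FPKM + 0.5) scale) of the 13 tested OAS family transcripts, in 5-FU (blue) and H2O2 (red), with bars of 1 SE of the fit. OAS2-214 in H2O2 stands farthest from 0 at -2.66, and all 5-FU differences lie between -0.88 and 0.50.

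The other genes of the pathway were read from 3 lists, again as sums of listed transcripts and not as mRNA levels. Of 14 listed genes of the 2-5A pathway and double-stranded RNA sensors, 9 were in the table and 8 were tested. None was called for 5-FU, 2 were under an unadjusted p of 0.05 (ADAR lower, ABCE1 higher), and 4 lay above 0 and 4 below, with a median of -0.09 against 0.03 over all tested genes, of which 15.5% were under that p and 46.2% below 0. The ubiquitin ligase gene TRIM25, which acts on RIG-I, was at 39.96, 46.3 and 37.0 FPKM in control, 50.7, 42.7 and 59.5 in 5-FU and 54.7, 51.4 and 48.9 in H2O2, with overlapping control and 5-FU libraries (log2 difference 0.30, limma adjusted p = 0.384). ADAR, which edits double-stranded RNA, was at 19.3, 19.95 and 19.97 FPKM in control and 10.96, 10.7 and 9.61 in 5-FU (log2 difference -0.89, limma adjusted p = 0.231), and at 11.4, 16.4 and 37.4 in H2O2. Its 5-FU libraries lay below all control libraries, while its H2O2 libraries lay on both sides. ABCE1, which codes for an ATP-binding cassette protein, was named after its values were seen, at a mean of 3.15 FPKM in control and 5.24 in 5-FU (log2 difference 0.66, limma adjusted p = 0.219). RIGI, the RNA sensor itself, was at 10.7, 8.92 and 13.3 FPKM in control, 8.06, 7.54 and 11.6 in 5-FU and 7.15, 7.14 and 5.30 in H2O2. RIGI was lower without overlap in H2O2 (-0.70) and overlapped control in 5-FU (-0.27, limma adjusted p = 0.599).

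Of 22 interferon signalling genes, 16 were in the table and 14 were tested for 5-FU, with 0 called, 4 under an unadjusted p of 0.05 (TYK2 and IFNAR1 lower, IRF5 and IFNAR2 higher, named after their values were seen), 8 above 0 and 6 below, and a median of 0.02. Over all genes, 15.5% were under that p and 46.2% below 0. The kinase gene TBK1 was at 13.5, 12.96 and 14.8 FPKM in control and 17.1, 15.9 and 16.5 in 5-FU (limma adjusted p = 0.369). IRF1, a transcription factor of the interferon response, was at 20.4, 15.3 and 13.6 FPKM in control and 15.1, 8.80 and 9.87 in 5-FU (limma adjusted p = 0.343).

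Of 51 other interferon-stimulated genes, 33 were in the table and 32 were tested for 5-FU. Again 0 were called, 5 were under an unadjusted p of 0.05 (RSAD2, IFI44L, UBE2L6 and PLSCR1 lower, SP110 higher), beside 15.5% of all genes, and 10 lay above 0 and 22 below, with a median of -0.17, where 46.2% of all genes were below. For H2O2 4 of these 32 lay above 0 and 28 below, where 46.1% of all genes were below, with a median of -0.32 against 0.03 over all tested genes. The H2O2 libraries lay below control without overlap for 10 of the 32 and above it for 1, beside 6.51% and 8.86% of all genes. For interferon signalling the H2O2 median was -0.06, and for the 2-5A and sensor list -0.01. SP100, a nuclear body gene, was at 38.8, 32.9 and 37.5 FPKM in control, 33.6, 43.3 and 43.1 in 5-FU and 30.1, 30.2 and 29.3 in H2O2, so its H2O2 libraries lay below control. PLSCR1, which codes for a phospholipid scramblase, was at 29.9, 28.97 and 30.4 FPKM in control, 21.4, 25.98 and 21.9 in 5-FU and 21.8, 27.9 and 23.6 in H2O2, so both treated groups lay below control, and it did not pass the test for 5-FU (limma adjusted p = 0.259). HLA-B, which presents peptides to T cells, ran from 7.27 to 37.9 FPKM over the 9 libraries, and its groups overlapped.

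**Figure D5:**
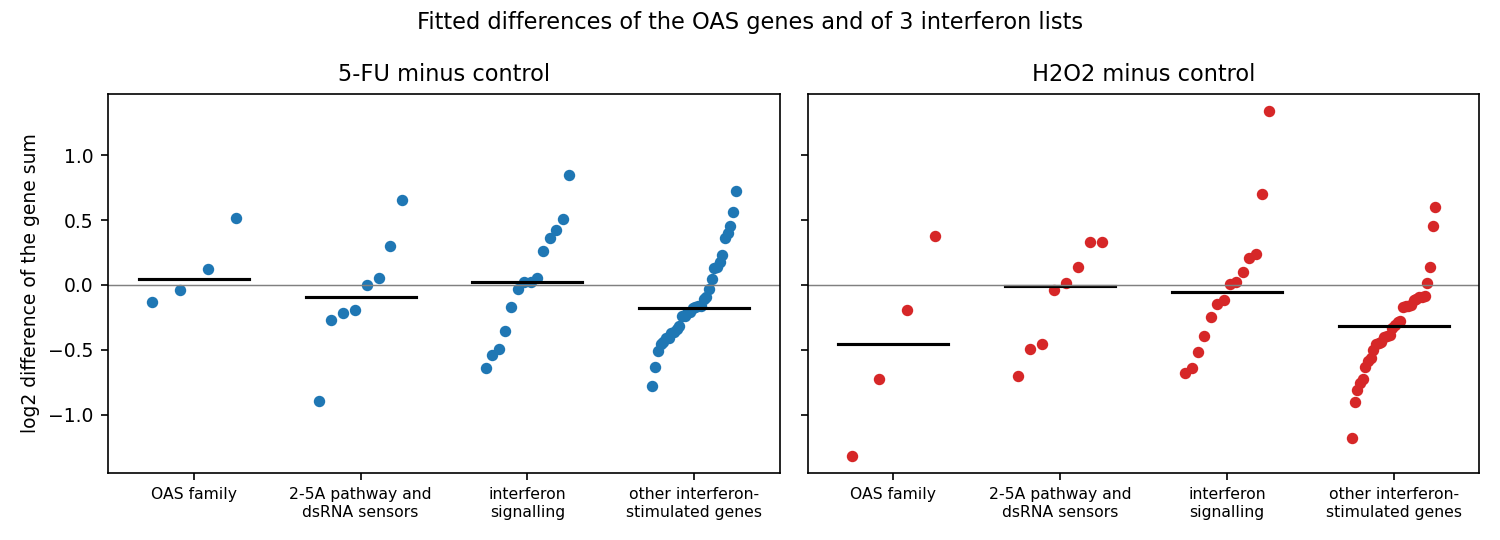
Fitted differences from control (vertical axis, log2(FPKM + 0.5) scale) of gene sums, in 5-FU (left) and H2O2 (right), for the 4 OAS genes and the tested genes of the 3 lists. Each point is a gene, ordered by value within its list, and the line is the median. In H2O2 the points of the other interferon-stimulated genes lie mostly below 0, with a median of -0.32, and OAS2 at -1.32 is the lowest point shown.

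Within the family, OAS2 and OASL ran most alike over the 9 libraries (Pearson r = 0.77 on log2(FPKM + 0.5), a description over 9 libraries that share the 3 groups). OAS3 had r = 0.43 with OASL and 0.30 with OAS2, and OAS1 had r between -0.26 and -0.16 with the other members. Over all tested genes with a symbol, the 5 most like the OAS2 sum were PDK2 (r = 0.94), ERCC4 (0.91), STRADA (0.90), TRIM22 (0.88) and PRRC1 (0.87). PDK2, a kinase of pyruvate dehydrogenase, was at 4.86, 5.91 and 6.82 FPKM in control, 4.70, 5.34 and 5.16 in 5-FU and 2.77, 3.61 and 3.83 in H2O2. TRIM22, an interferon-stimulated gene of the third list, was at 2.87, 2.97 and 4.25 FPKM in control, 2.64, 2.92 and 2.81 in 5-FU and 1.61, 2.34 and 2.0005 in H2O2. All 5 had their lowest group in H2O2, as the choice by likeness to OAS2 makes likely.

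Within 100 kb of the OAS1, OAS3 and OAS2 cluster, RPH3A was listed at 0 in all 9 libraries, and RASAL1, 88168 bases from OAS2, was at 1.40 ± 0.111 FPKM in control libraries, 2.11 ± 1.37 with 5-FU and 1.47 ± 0.886 in H2O2 (SD, n = 3). A gene listed without a symbol (ENSG00000257452), which GENCODE V29 names AC004551.1 and classes as antisense, spans the cluster on the minus strand, from 112907628 to 113017751. It was at 0.111 FPKM or less in every library, and since no label or note says whether the authors' quantification used strand, its reads and those of the OAS genes may not be fully told apart. The RASAL1 groups overlapped, and it did not pass the test for 5-FU (log2 difference 0.34, SE 0.41, limma adjusted p = 0.747).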

How the data were processed

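Each library's column in the deposited table holds transcript FPKM computed by the authors. HISAT2 2.0.5, StringTie, edgeR 3.22.5 and GRCh38 are named, without roles, per the submitters' processing notes. Which annotation release they used, and if reads were assigned by strand, is not given in the sources used. Trizol was used for extraction and the strand-marking NEBNext Ultra Directional kit for the libraries, per the labels' protocols. In each library the lowest non-zero value was 1e-06 FPKM, so whole reads could not be recovered, depth is unknown and no counting interval is given.

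FPKM were summed per gene identifier without rescaling. Genes (9947) and transcripts (22618) with at least 0.5 FPKM in 3 of 9 libraries were fitted on log2(FPKM + 0.5) with limma 3.58.1 (R 4.3.3; lmFit, eBayes with trend), all 9 libraries in 1 fit with 6 residual degrees of freedom. P-values are two-sided and Benjamini-Hochberg adjusted over everything fitted, with a threshold of 0.05. Log2 differences on this scale understate changes of low values. Members were tested for 5-FU against control only. Shares were compared by exact permutation tests. The gene fit was also run on simulated data, with added changes larger than any 5-FU difference of the members. That run says nothing about changes of their size.

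The members and the gene lists were chosen with earlier results of these data known. Named besides all members were the list members called for 5-FU or otherwise the 3 with the highest mean FPKM, the 5 genes most correlated with the OAS2 sum, and genes within 100 kb, of which some are not reported here. Transcript ends were placed on GENCODE V29 mRNAs (GRCh38). Names of some transcripts and their ends differ from V29, so the authors' release was another one. Promoters are from RefSeq (GRCh38.p14). Alternatives were other pseudocounts (0.1 and 1), filters, scaling, weights, a replicate block, 2-group fits and leaving out each library.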

Additional observations from a re-analysis of the deposited data

How the results depend on the processing

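None of the 4 gene sums and 13 tested transcripts was called for 5-FU under the alternatives in which it was fitted; the other 5 transcripts were not followed. The H2O2 differences of the OAS2 sum ran from -1.49 to -1.06, those of OAS2-214 from -2.92 to -2.49 and those of the OASL sum from -0.88 to -0.61 with 1 library left out. The count of H2O2 transcript differences below 0, 10 of 13, ran from 7 (without control replicate 3) to 10. The 5-FU sign of small differences turned with 1 library left out: OAS3 sum -0.0715 to 0.30, OASL sum -0.19 to 0.12, OAS3-233 -0.56 to 0.20, OAS2-214 -0.21 to 0.0625 and OASL-209 -0.14 to 0.20. OASL-209 was also at -0.0222 with median-of-ratios scaling and -0.0269 with array weights. With a pseudocount of 0.1 the H2O2 differences of OAS1-228 and OAS3-202 were -2.54 and -1.44, against -1.25 and -0.75. The background counts depend strongly on the setting, and the cause was not tested. Genes called for 5-FU (77) came to 48 with no filter, 21 with the 2 groups compared only, and 0 to 88 with 1 library left out, being 7 or fewer when any 1 control or 5-FU library was left out and 20 without H2O2 replicate 1. Genes called for H2O2 (0) came to 0 to 3 with 1 left out. Transcripts called for 5-FU (1) came to 3 with a pseudocount of 0.1, 0 with 1, 17 with no filter, 0 at 1 FPKM, 3 with median-of-ratios scaling, 5 with 2 groups, 3 with array weights and 0 to 6 with 1 left out. Transcripts called for H2O2 (3) came to 5 with a pseudocount of 0.1, 7 with no filter, 9 with 2 groups, 7 with array weights and 0 to 8 with 1 left out. At 1 FPKM, OAS3-202 and OAS3-218 were not fitted.

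With a replicate block, 0 genes and 0 transcripts were called for 5-FU and 0 transcripts for H2O2. Correlations of same-numbered libraries' deviations were -0.0357 to 0.0801, none of 9 pairs over 0.1, and 5 of 9 libraries correlated best with their own number, so the numbers were not taken as pairs.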
